A study of Mus musculus with 8 samples.

Results

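The 10 genes described here are immediate early and stress genes that cells switch on rapidly after a stimulus: the AP-1 transcription factor genes Fos, Fosb, Jun and Junb, the transcription factor genes Egr1 and Atf3, the early response genes Ier2 and Ier3, the cytokine feedback inhibitor gene Socs3 and the inducible chaperone gene Hspa1b. They were chosen by name, and all 10 had at least 1 probe set that named that gene alone, among 18193 such genes on the array. They were measured at E13.5 in embryos of homozygous Tie2-GFP mice, in the cells of cortex and of lung that carried GFP in the sort. Each of the 4 cortex arrays and 4 lung arrays held cells pooled from a litter of 10 to 13 embryos, and the samples carry the numbers 72, 22, 19 and 18 in both tissues. The labels count 4 litters and do not say whether arrays of the same number share one. In these mice the promoter of Tek (Tie2), an endothelial receptor gene that some blood-derived cells also use, drives green fluorescent protein. Both tissues were diced, dissociated with collagenase and sorted, and the cortex had been cleared of meninges and choroid plexus. Values are log2 expression values, and differences are cortex minus lung.

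Immediate early genes need no new protein for their induction, because their activators (serum response factor with its ternary complex partners, CREB, STAT3 and others) are already present in the resting cell. Their messages and proteins are short-lived, and several of them encode factors that shut the response down again. Enzymatic dissociation and cell sorting are known to switch on the same genes, including the heat-inducible chaperones. The levels of these genes in sorted cells may therefore hold what the cell made in the tissue, what it made afterwards, or both. The data hold no cells that were spared the dissociation, so these parts cannot be told apart here.

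Every one of the 10 genes was measured in cortex cells and in lung cells. Cortex cells had less of 4 of them, with an adjusted p under 0.05 (limma, Benjamini-Hochberg over all genes): Socs3, Hspa1b, Ier2 and Junb. The other 6 genes did not pass, and 0 of 10 were higher in cortex by this test, also at an unadjusted p under 0.05 (0 of 10). Over all 18193 genes 18.1% were called, with 7.71% of all genes lower in cortex and 10.4% higher in cortex. The 4 called genes were also those in which every cortex array lay below every lung array, an arrangement found in 12% of all genes (24.5% with no overlap in either direction). The cortex mean was the lower one for 9 of the 10 genes and for 58.5% of all genes. The median difference of the 10 genes was -0.97, against -0.09 over all genes and -1.16 over 26 pan-endothelial markers. Of those markers, 25 had the lower mean in cortex. When the arrays were brought to a common mean of 26 pan-endothelial markers (pan-endothelial scaling), every difference rose by the same amount. The median gene then lay 1.17 higher in cortex, with 136 of the 18193 genes called lower and 5355 higher. Such a shift keeps the order of the genes, so the 9 of 10 genes below that median were those below it before. Under this scaling 1 of the 10 genes (Socs3) kept its call, and the differences of Junb (0.37) and Ier2 (0.14) turned positive without passing.

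**Figure D1:**
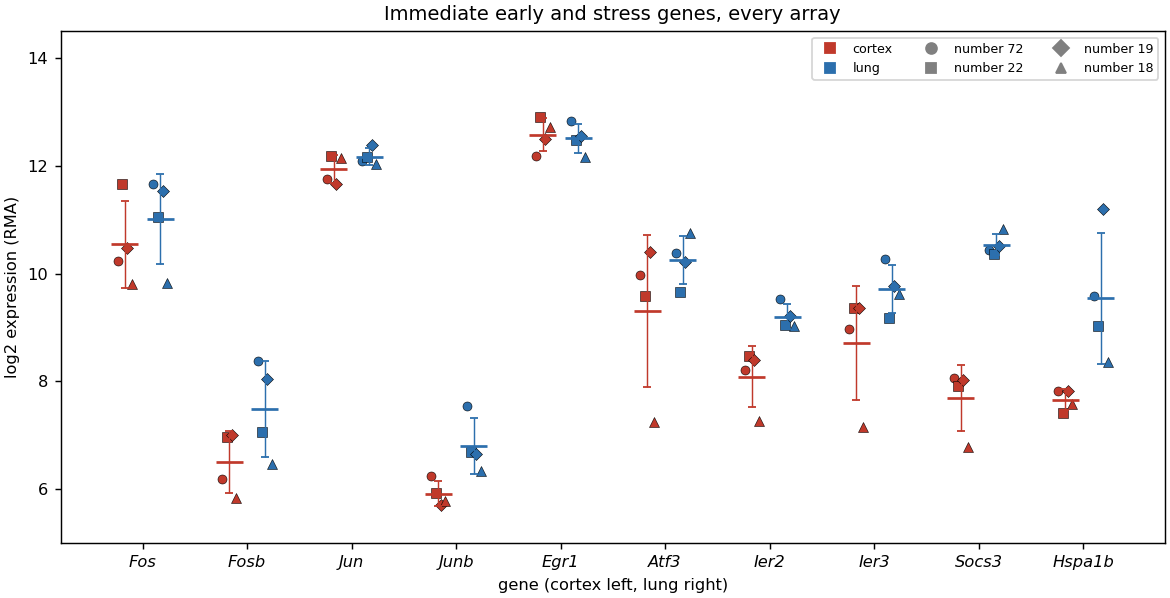
Log2 expression of each of the 10 genes on every array, with cortex (red, left) and lung (blue, right); symbols give the sample number, bars the mean and whiskers the SD (n = 4 each). Socs3 lay between 6.78 and 8.05 in cortex and between 10.37 and 10.82 in lung, while the arrays of the tissues overlapped for Egr1, Jun, Fos, Fosb, Atf3 and Ier3.

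Some facts of the arrays stand beside all of these values. In 4 samples the description contradicts the title, and the tissue was taken from the titles, which the marker genes followed: the neuronal gene Neurod6 averaged 11.71 ± 0.18 in cortex against 3.72 ± 0.49 in lung, and the trunk patterning gene Hoxa5 averaged 6.49 ± 0.79 in cortex against 10.56 ± 0.15 in lung (SD, n = 4 each). The sorted cells were not endothelial alone. All 19 measured neural markers were higher in cortex, with array means of 11.10 to 11.63 in cortex and 6.49 to 6.82 in lung. The 26 pan-endothelial markers averaged 9.20 to 11.12 on the cortex arrays and 11.09 to 11.68 on the lung arrays, and 8 of them were lower in cortex. The endothelial genes Tek (11.70 ± 0.84 in cortex and 12.93 ± 0.28 in lung), Pecam1 (8.98 ± 1.06 and 10.46 ± 1.03) and Cdh5 (8.39 ± 1.09 and 9.65 ± 1.06) had lower means in cortex. Of 15 mesenchyme and mural markers, 8 were lower and 1 higher in cortex, with array means of 6.55 to 7.05 in cortex and 7.14 to 9.36 in lung. The 15 macrophage and microglia markers averaged 8.04 to 8.76 on the cortex arrays 72, 22 and 19, 5.65 on cortex 18 and 5.31 to 6.43 on the lung arrays, and 5 of them were higher in cortex. Of 10 erythroid markers 2 were higher and 1 was lower in cortex (array means 6.19 to 6.76 in cortex and 5.67 to 6.11 in lung), and of 12 lung epithelial markers 1 was higher and 2 were lower (6.67 to 7.68 in cortex and 6.86 to 8.19 in lung). The values carry no detection call, so no marker can be said to be absent. In such mixed samples, fewer cells of a type and less RNA per cell cannot be told apart, and the part of these other cells in the differences below was not tested.

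The AP-1 genes encode partners of a dimer: Fos and Fosb proteins pair with Jun or Junb to bind DNA, and Fos and Jun are strong activators, while Junb is the weaker partner that often restrains Jun. Fos had 10.22, 11.67, 10.47 and 9.80 on the cortex arrays 72, 22, 19 and 18, against 11.66, 11.05, 11.52 and 9.83 on the lung arrays of the same numbers. The tissues overlapped over most of their range, and the lowest array of each tissue was number 18. The difference was -0.47 ± 0.49 (SE), with a 95% confidence interval of -1.60 to 0.65 (limma adjusted p = 0.544). Fosb, the close relative of Fos, had 6.18, 6.96, 7.004 and 5.84 in cortex, against 8.38, 7.06, 8.04 and 6.46 in lung. Its mean was lower in cortex by a factor of 1.99, but lung 18 lay below cortex 22 and 19, and the difference of -0.99 did not pass (95% confidence interval -2.03 to 0.05, adjusted p = 0.177). It passed after median centring of the arrays (-1.20, adjusted p = 0.0409) and with array quality weights (-1.32, adjusted p = 0.0243), and it turned to 0.27 under pan-endothelial scaling (adjusted p = 0.681).

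Jun, the partner shared by the Fos proteins, had 11.76, 12.18, 11.67 and 12.15 in cortex, against 12.08, 12.17, 12.39 and 12.04 in lung. The tissues overlapped, and the difference was -0.23 (95% confidence interval -0.62 to 0.15, adjusted p = 0.375). The other probe set of Jun differed by -0.46 in the same direction and also overlapped between tissues. Junb had 6.23, 5.93, 5.70 and 5.77 in cortex, against 7.54, 6.68, 6.65 and 6.32 in lung. Every cortex array was below every lung array, by 0.09 between the closest arrays. Junb fell by 0.89 ± 0.26 on the log2 scale (SE, 1.85-fold lower in cortex, adjusted p = 0.0476), close to the threshold. It was a dim gene, with a mean of 6.35 over the 8 arrays, above that of 36.2% of all genes. With an intensity trend in limma its call ended (adjusted p = 0.0587). In the main form of the fit, the call held in 1 of the 8 fits that left out an array, the one without lung 18, where the adjusted p was 0.0307, and the differences ran from -1.05 to -0.64.

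The 250 bases before the RefSeq start of Fos and of Junb are shown because a cAMP response element (CRE), the binding site of CREB and ATF proteins, is a known entry point of early gene induction. RefSeq windows (GRCm38.p6) were at hand for 8 of the 10 genes, Fos, Fosb, Jun, Junb, Atf3, Ier3, Socs3 and Hspa1b. Capitals mark the CRE half-site TGACG, searched on both strands, and in Fos also the letters TATAAA. Fos lies on the plus strand (chr12:85473640-85473889) and Junb on the minus strand (chr8:84978749-84978998).
Fos: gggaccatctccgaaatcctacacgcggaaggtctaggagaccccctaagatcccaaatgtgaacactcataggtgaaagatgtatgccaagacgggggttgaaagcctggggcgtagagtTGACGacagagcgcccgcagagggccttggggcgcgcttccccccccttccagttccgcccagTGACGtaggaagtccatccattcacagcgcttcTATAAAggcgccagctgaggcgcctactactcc
Junb: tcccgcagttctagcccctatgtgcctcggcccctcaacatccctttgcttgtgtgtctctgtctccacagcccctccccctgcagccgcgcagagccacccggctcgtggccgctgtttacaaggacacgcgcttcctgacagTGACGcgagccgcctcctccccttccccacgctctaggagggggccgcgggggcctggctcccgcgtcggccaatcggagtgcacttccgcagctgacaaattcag
The half-site stood in 4 of the 8 windows (Fos, Fosb, Junb and Atf3) and in 17.8% of all 32851 windows of this length, without overlap with the other motifs searched. TATAAA stood in 1 of 8 windows, that of Fos, and in 12.4% of all windows. The CArG box, which serum response factor binds, was found in 0 of 8 windows and in 1.47% of all. The windows reach only 250 bases before the start, so a CArG box farther away would be missed. Egr1 and Ier2 had no window. The differences of the 4 genes with the half-site ran from -0.99 in Fosb to -0.47 in Fos. Those of Jun (-0.23), Ier3 (-1.01), Hspa1b (-1.88) and Socs3 (-2.85), whose windows lacked it, lay on both sides of that range. A link between the half-site and the differences was not tested.

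Egr1, a zinc finger factor induced through serum response factor, had 12.19, 12.91, 12.50 and 12.73 in cortex, against 12.84, 12.49, 12.55 and 12.16 in lung. The tissues covered the same range, and the difference of 0.07 had the narrow 95% confidence interval of -0.40 to 0.54 (adjusted p = 0.832). Its sign turned with the scaling and with the array left out.

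Atf3, a stress-induced factor of the ATF family that can repress its own targets, varied most among the cortex arrays. It had 9.97, 9.59, 10.41 and 7.25 in cortex, against 10.38, 9.66, 10.21 and 10.75 in lung. Cortex 18 lay 2.34 below the next cortex array, while the other cortex arrays lay within the lung range or just below it. The SD in cortex, 1.41, was above that of 99.7% of all genes in cortex, and the difference of -0.95 did not pass (adjusted p = 0.341). Without cortex 18 the difference was -0.26 (adjusted p = 0.602). The window before Atf3 (chr1:191183334-191183583, minus strand) is shown because it holds the half-site on its other strand, as CGTCA, next to the start of the gene.
Atf3: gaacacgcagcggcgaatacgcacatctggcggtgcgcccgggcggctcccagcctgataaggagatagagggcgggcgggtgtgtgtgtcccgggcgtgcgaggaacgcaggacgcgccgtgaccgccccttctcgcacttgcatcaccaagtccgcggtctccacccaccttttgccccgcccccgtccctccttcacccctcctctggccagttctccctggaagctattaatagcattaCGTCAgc

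Ier2 and Ier3 are short early response genes. Ier2 encodes a nuclear protein, and Ier3 a regulator of cell survival. Ier2 had 8.21, 8.47, 8.39 and 7.25 in cortex, against 9.53, 9.04, 9.21 and 9.03 in lung. Every cortex array was below every lung array, and cortex 18 was lowest. Ier2 fell by 1.12 ± 0.28 on the log2 scale (SE, 2.17-fold lower in cortex, adjusted p = 0.0244). The call held in 5 of the 8 fits that left out an array and ended without cortex 72, lung 72 or lung 19 (adjusted p = 0.0534 to 0.0603), with differences of -1.25 to -0.84 over all 8. Ier3 had 8.97, 9.36, 9.36 and 7.14 in cortex, against 10.28, 9.18, 9.77 and 9.63 in lung. Cortex 18 stood 1.83 below the next cortex array, the tissues overlapped, and the difference of -1.01 did not pass (adjusted p = 0.206). Without cortex 18 it was -0.48 (adjusted p = 0.294).

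Socs3 showed the largest difference of the 10 genes. Its protein is induced by STAT3 and binds the shared cytokine receptor gp130 and its kinases to end the signal of the interleukin-6 family. Socs3 had 8.05, 7.91, 8.02 and 6.78 in cortex, against 10.44, 10.37, 10.51 and 10.82 in lung. The closest cortex and lung arrays were 2.31 apart, and the lung arrays lay within 0.45 of each other. Socs3 fell by 2.85 ± 0.29 on the log2 scale (SE, 7.20-fold lower in cortex, 95% confidence interval -3.51 to -2.19, adjusted p = 0.000253). By the size of its difference it ranked at 569 of the 18193 genes. It passed in all 8 fits that left out an array, with differences of -2.97 to -2.54, and also under pan-endothelial scaling (-1.59, adjusted p = 0.0318). Its 3 probe sets gave differences of -3.10, -2.85 and -2.58, and in each of them no cortex array reached a lung array. Within cortex, the array with the lowest Socs3 in the probe set used, number 18, also had the lowest macrophage marker and pan-endothelial means. In the dimmest probe set cortex 19 (5.83) lay just below cortex 18 (5.85). Cortex 72, with the next lowest pan-endothelial mean (9.58), had the highest Socs3 of the cortex arrays (8.05). A link to these markers was not tested. The annotated Socs3 gene extends beyond the start that its RefSeq window uses, so only the stretch around the letters TTCNNNGAA, the core of a STAT site, is shown (GRCm38.p6, chr11:117969502-117969530, minus strand), in capitals.
Socs3: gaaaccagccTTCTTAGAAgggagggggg
These letters stood in 1 of the 8 windows, that of Socs3, and in 7.02% of all windows. They overlapped none of the other motifs searched.

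**Figure D2:**
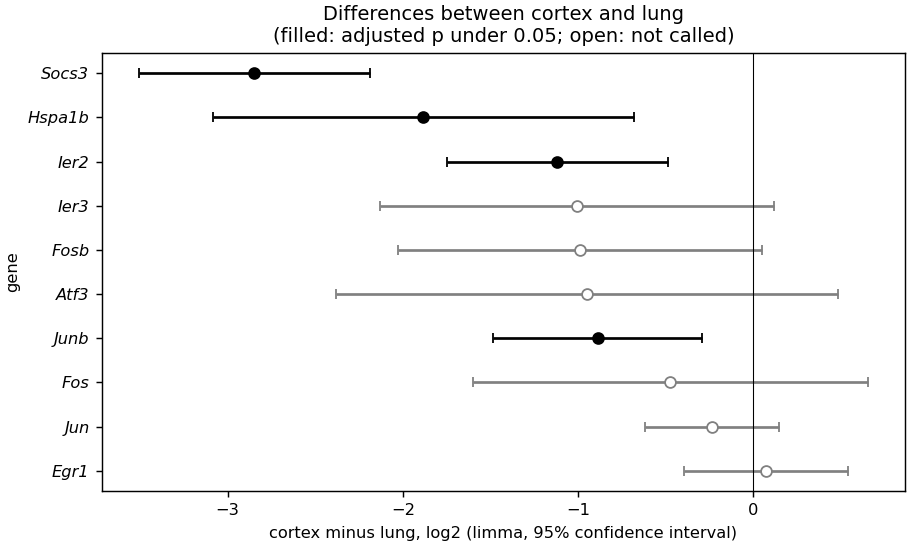
Cortex minus lung difference of each of the 10 genes on the log2 scale, with 95% confidence intervals from limma (n = 4 arrays each); filled points passed at an adjusted p under 0.05. The intervals of Socs3 (-3.51 to -2.19), Hspa1b, Ier2 and Junb lie below 0, and under pan-endothelial scaling the differences of Junb and Ier2 turned positive without a call.

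Hspa1b encodes the heat-inducible Hsp70, a chaperone that heat shock factor switches on when proteins unfold. It had 7.81, 7.42, 7.83 and 7.58 in cortex, against 9.59, 9.02, 11.20 and 8.35 in lung. The cortex arrays were tightly grouped (SD 0.20), while the lung arrays were spread over 2.85 (SD 1.22, above that of 97.5% of all genes in lung), with lung 19 highest. Hspa1b fell by 1.88 ± 0.53 on the log2 scale (SE, 3.69-fold lower in cortex, adjusted p = 0.0401). The call ended in 6 of the 8 fits that left out an array and held without lung 19 (-1.33, adjusted p = 0.0236) or lung 18 (-2.28, adjusted p = 0.0158). The choice of probe set mattered: with the mean of all 3 probe sets the difference was -1.37 and did not pass (adjusted p = 0.119), and it was -0.63 under pan-endothelial scaling (adjusted p = 0.33).

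The 2 dimmer probe sets of Hspa1b differed by -1.30 and -0.92, and in both of them the tissues overlapped. In both, lung 19 and lung 72 stood above all cortex arrays, at 7.14 and 5.64 in the brighter and 5.94 and 4.51 in the dimmer one. Lung 22 and lung 18 lay at cortex levels, at 4.18 and 4.23 in the brighter and 3.24 and 3.46 in the dimmer one. The single probe set of Hspa1a, the neighbouring copy that encodes nearly the same protein, had 4.61, 4.61, 4.65 and 4.45 in cortex, against 5.39, 4.48, 6.79 and 4.77 in lung, with the same 2 lung arrays highest, lung 18 just above cortex and lung 22 within the cortex range. The probe sets may take up messages of either copy, so Hspa1b and Hspa1a are uncertain as separate genes. Of the 250 bases before the start of each, 247 were identical, and both windows hold the heat shock element core GAANNTTC at the same place. The window of Hspa1b (chr17:34959239-34959488, minus strand) is shown with that core in capitals.
Hspa1b: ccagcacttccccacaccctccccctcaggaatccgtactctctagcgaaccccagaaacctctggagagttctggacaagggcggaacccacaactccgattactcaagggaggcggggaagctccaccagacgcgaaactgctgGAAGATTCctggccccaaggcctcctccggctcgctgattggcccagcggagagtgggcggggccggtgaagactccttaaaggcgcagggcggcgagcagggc
The core stood in 2 of the 8 windows, those of Jun and Hspa1b, and in 6.69% of all windows, and it overlapped none of the other motifs.

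**Figure D3:**
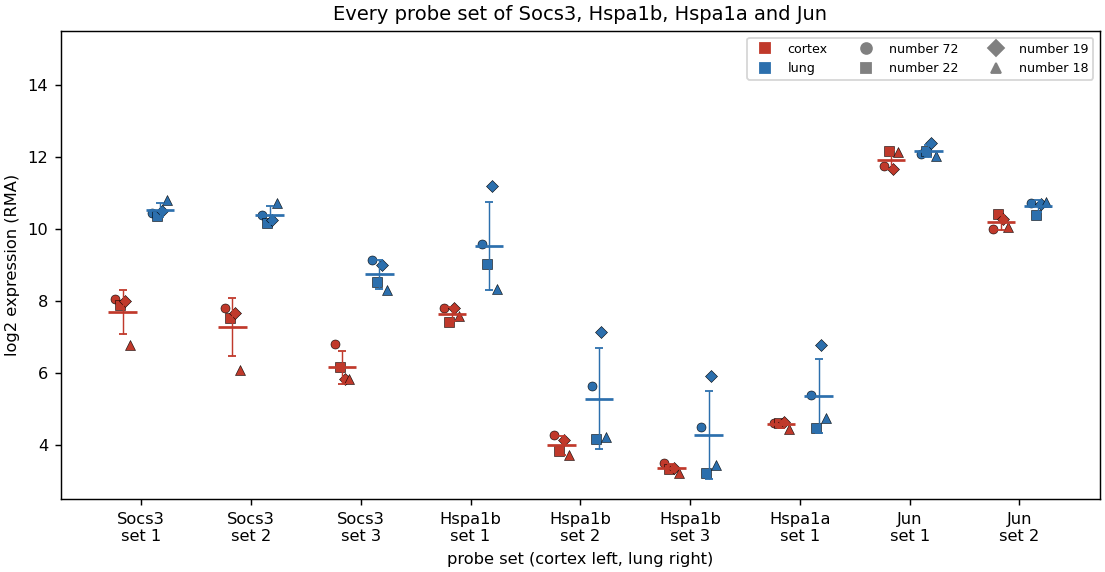
Log2 expression on every array for each probe set of Socs3, Hspa1b, Hspa1a and Jun, with cortex (red, left) and lung (blue, right), means and SDs (n = 4 each); sets of a gene are ordered by their cortex mean. All 3 Socs3 sets separated the tissues, while in the 2 dimmer Hspa1b sets the lung arrays 19 and 72 stood above cortex and the lung arrays 22 and 18 did not, and in Hspa1a lung 22 did not.

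Within each tissue, number 18 was the lowest array for most of the 10 genes. The share over all genes was not counted, so this is not shown to be particular to these 10 genes. In cortex, number 18 was the lowest array for 6 of the 10 genes and the highest for 0, and the mean over the 10 genes was 8.23 there, against 8.96 to 9.24 on the other cortex arrays. In lung, number 18 was the lowest array for 7 of 10 genes and the highest for 2 (Atf3 and Socs3), with a mean of 9.54, while number 72 was the highest for 6 of 10, with a mean of 10.27. In the dimmest probe set of Socs3, however, lung 18 was the lowest lung array (8.31). The SD within cortex was above the median SD of all genes for 8 of the 10 genes, and within lung for 6 of 10. The smallest SDs were those of Hspa1b (0.20), Junb (0.24) and Jun (0.26) in cortex, and of Jun (0.16), Socs3 (0.20) and Ier2 (0.23) in lung.

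The arrays numbered 18 also stood apart in other measures. Cortex 18 had the lowest pan-endothelial mean of all arrays, 9.20, and the lowest macrophage marker mean of the cortex arrays. Lung 18 had the lowest pan-endothelial mean of the lung arrays, 11.09, the lowest mesenchyme mean of the lung arrays, 7.14, and the highest ratio of the 3′ to the 5′ control probe set of Gapdh, a sign of RNA length, at 1.54 on the log2 scale against 0.91 to 1.14 on the other lung arrays and 1.02 to 1.21 on the cortex arrays. Lung 72 had the highest mesenchyme mean, 9.36. The part of these measures in the genes' levels was not tested. Without both arrays numbered 18, a setting chosen after the data were seen, Socs3 (-2.45, adjusted p = 0.000217), Ier2 (-0.90, adjusted p = 0.0239) and Hspa1b (-2.25, adjusted p = 0.0401) kept their calls, Junb did not (-1.0003, adjusted p = 0.0753), and Atf3 lay at -0.10.

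**Figure D4:**
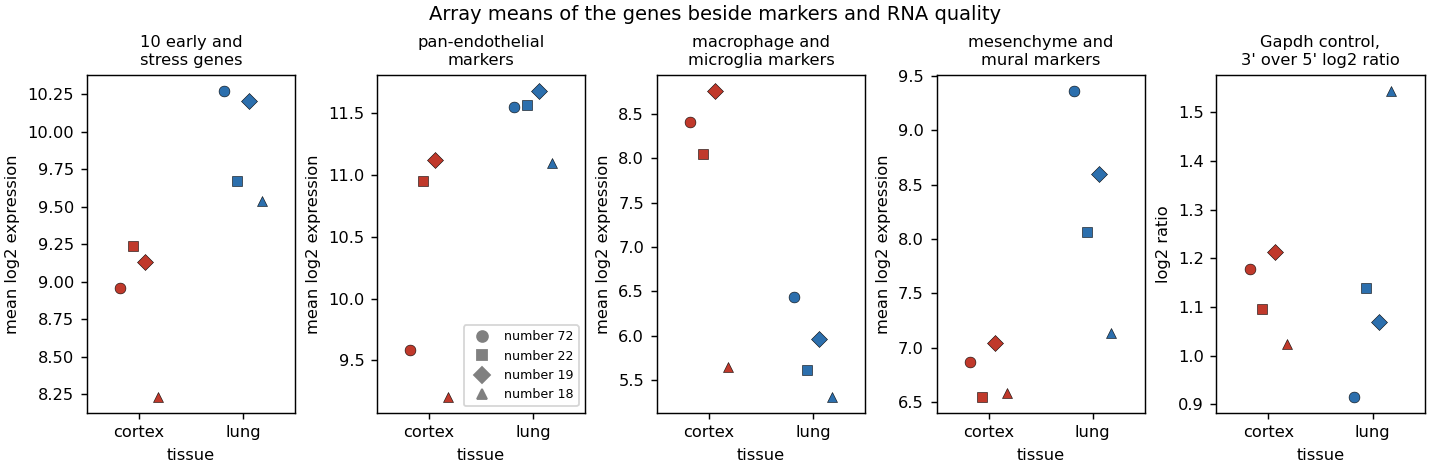
Array means of the 10 genes, of 3 marker lists (mean log2 expression) and the log2 ratio of the 3′ to the 5′ Gapdh control, in cortex (red, left) and lung (blue, right); symbols give the sample number. Cortex 18 is lowest for the 10 genes (8.23), pan-endothelial markers (9.20) and, within cortex, macrophage markers (5.65), and lung 18 has the highest Gapdh ratio (1.54).

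The genes whose values followed Fos most closely over the 8 arrays were A630072M18Rik, Cd9, which encodes a tetraspanin of the cell surface, and St6galnac3, a sialyltransferase gene. After each gene was centred on its own mean, these differed from Fos by 0.16, 0.19 and 0.19 on average. They shared its low values on both arrays numbered 18 and its high values on cortex 22 and lung 72, as Cd9 shows with 6.96, 7.92, 7.04 and 6.21 in cortex and 8.11, 7.05, 7.62 and 6.15 in lung. Among the other 9 early and stress genes, Fosb (0.39, rank 353 of all genes) and Ier2 (0.41, rank 484) were nearest to Fos, and Socs3 (1.19, rank 16749) was farthest. The rest ranked between 1925 (Junb) and 14777 (Atf3). The 8 arrays share the 2 tissues and 4 sample numbers.

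Other early transcription factors moved the same way in part. Of 22 genes listed with the AP-1, EGR, NR4A, KLF and similar families, 6 fell in cortex, 1 rose and 15 did not pass, a called share of 31.8% against 18.1% of all genes (7.71% lower and 10.4% higher in cortex), with a median difference of -0.29 (-0.09 over all genes). The AP-1 member Fosl2 had 8.65, 9.75, 9.55 and 7.87 in cortex, against 10.80, 10.61, 10.90 and 10.17 in lung, and fell by 1.66 on the log2 scale (adjusted p = 0.022). Its call ended without cortex 72, lung 22 or lung 19. Nr4a3, a nuclear receptor gene of the same early class, went the other way, with 9.92, 9.68, 8.93 and 8.74 in cortex, against 7.69, 6.86, 6.34 and 6.74 in lung (2.41 higher in cortex, adjusted p = 0.00193). With the mean of all its probe sets the difference was 0.75 (adjusted p = 0.0114). The other 5 genes that fell, named after their values were seen, were Klf4 (-1.56), Myc (-1.56), Cebpd (-1.52), Csrnp1 (-1.14) and Mafk (-0.62). Klf4 and Cebpd passed without each array in turn, while the call of Myc held in 1 of the 8 fits that left out an array and those of Csrnp1 and Mafk in 2 of 8. Under pan-endothelial scaling Csrnp1 and Mafk turned positive, and none of the 6 falls was called.

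Feedback regulators of the early response were called about as often as other genes. Of 29 genes, 3 rose in cortex, 3 fell and 23 did not pass, a called share of 20.7% against 18.1% of all genes, with a median of -0.22. Cited2, a transcriptional co-regulator, had 10.75, 11.32, 10.80 and 11.48 in cortex, against 9.57, 8.38, 9.12 and 4.92 in lung. Lung 18 was far below the rest. The difference of 3.09 (adjusted p = 0.0467) was 2.06 without it and 1.85 with the mean of all probe sets, and the call ended without any 1 of 6 arrays. Dusp4, a phosphatase that switches off MAP kinases, was 1.70 higher in cortex (10.18 ± 0.59 in cortex and 8.48 ± 0.66 in lung, SD, n = 4 each, adjusted p = 0.0165), and it passed without each array in turn. Without both arrays numbered 18 it did not pass (1.38, adjusted p = 0.0978). The third gene that rose was Ier5 (0.93), and those that fell were Spry4 (-1.63), Ccn2 (-1.21) and Zfp36l2 (-1.15), named after their values were seen. The calls of Spry4 and Zfp36l2 held in 3 of the 8 fits that left out an array, and with the mean of all probe sets their differences were -1.07 and -0.53. Under pan-endothelial scaling 0 of the 29 genes were called lower and 6 higher in cortex, against 136 and 5355 of all 18193 genes. Ccn2 and Zfp36l2 turned positive there.

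Chaperone genes outside Hspa1b were also called about as often as other genes. Of 19 measured genes, 3 fell in cortex, 1 rose and 15 did not pass, a called share of 21.1% against 18.1% of all genes, with a median of -0.15. Pan-endothelial scaling gave 0 lower and 2 higher, against 136 and 5355 of all 18193 genes. The small heat shock protein gene Hspb1 had 7.58, 8.49, 7.45 and 7.24 in cortex, against 8.99, 9.30, 8.499 and 8.75 in lung, just without overlap, and fell by 1.20 on the log2 scale (adjusted p = 0.023). That call ended without any 1 of 5 arrays, and the difference turned to 0.06 under pan-endothelial scaling. Hspa4l, a relative of the Hsp110 chaperones, was 1.86 higher in cortex (adjusted p = 0.0187), a call that ended without cortex 72 or cortex 18. Smaller falls were called for Hspd1 (-0.57) and Hspa4 (-0.52), named after their values were seen, and both turned positive under pan-endothelial scaling. The call of Hspa4 held in 2 of the 8 fits that left out an array and ended with the mean of all probe sets (-0.22, adjusted p = 0.27).

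Genes of the integrated stress, DNA damage and oxidative stress responses had the most genes called higher in cortex of the 7 related lists, 5 of 24, with 2 lower in cortex, 17 not called and a median of 0.14. The called share was 29.2%, against 18.1% of all genes (10.4% higher and 7.71% lower in cortex). The metallothionein genes, which bind zinc and other metals, stood out among them. Mt2 had 9.97, 10.98, 9.76 and 9.89 in cortex, against 8.25, 5.998, 7.02 and 6.45 in lung (3.22 higher in cortex, adjusted p = 0.00214). Mt1 was 3.15 higher (9.80 ± 0.51 in cortex and 6.65 ± 1.13 in lung, SD, n = 4 each, adjusted p = 0.0039), and 1.66 higher with the mean of all its probe sets. Both passed without each array in turn. The other 3 genes that rose were Atf5 (1.01), Chac1 (0.94) and Ddit4 (0.54), and the 2 that fell were Ppp1r15a (-1.19) and Trib3 (-1.04), all named after their values were seen. The call of Ddit4 held in 3 of the 8 fits that left out an array. Ppp1r15a and Trib3 turned positive under pan-endothelial scaling. That scaling gave 0 of the 24 genes lower and 11 higher in cortex, against 136 and 5355 of all 18193 genes.

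In the pathway that Socs3 restrains, genes were called in both directions, and the receptor genes Il6st and Lifr were lower in cortex. Of 18 measured genes of the SOCS family and the gp130 STAT3 pathway, 3 fell in cortex, 2 rose and 13 did not pass, with a median of 0.03. The called share was 27.8%, against 18.1% of all genes. Pan-endothelial scaling gave 0 lower and 8 higher in cortex, against 136 and 5355 of all 18193 genes. Il6st, which encodes gp130, had 9.75, 10.17, 10.50 and 9.42 in cortex, against 11.80, 11.66, 11.92 and 11.33 in lung, with no overlap, and fell by 1.71 on the log2 scale (3.28-fold lower in cortex, adjusted p = 0.00188). Lifr, the receptor that pairs with gp130 for leukaemia inhibitory factor, had 9.30, 10.07, 10.31 and 9.22 in cortex, against 10.93, 11.38, 11.63 and 10.81 in lung, and fell by 1.46 (adjusted p = 0.0108). Both passed without each array in turn, and under pan-endothelial scaling neither did (-0.46 and -0.20). The receptor genes Osmr (1.60, adjusted p = 0.138) and Il6ra (0.50, adjusted p = 0.529) had higher means in cortex without a call. The others called were the kinase genes Jak1 (-1.19, lost without any 1 of 6 arrays) and Jak2 (0.97) and the family member Socs7 (0.75), named after their values were seen, and Jak1 turned positive under pan-endothelial scaling. Socs7 lost its call with the mean of all its probe sets (0.29, adjusted p = 0.0897) and after median centring (0.54, adjusted p = 0.17). Stat3 averaged 7.83 in cortex cells and 8.30 in lung cells (adjusted p = 0.363), and the ligand genes Il6 and Lif at 3.76 and 5.87 in cortex and 3.71 and 5.92 in lung, without a call.

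The inflammatory early genes of the NF-kappaB response that were called in the main form of the fit were lower in cortex. Of 22 measured genes, 5 fell in cortex, 0 rose (limma, adjusted p under 0.05) and 17 did not pass, with a median of -0.33, and at an unadjusted p under 0.05 there were 7 lower and 2 higher. The called share was 22.7%, against 18.1% of all genes (7.71% lower and 10.4% higher in cortex). The direction depended on the fit: with the sample number as a block 2 were lower and 2 higher, under pan-endothelial scaling 1 was lower and 7 higher, and with median centring or array weights 1 was higher. Over all 18193 genes, pan-endothelial scaling gave 136 lower and 5355 higher. Irf1, a transcription factor of the interferon regulatory factor family, had 7.09, 7.17, 7.59 and 7.24 in cortex, against 10.31, 9.68, 10.06 and 10.15 in lung. The groups lay 2.09 apart at their closest arrays, and Irf1 fell by 2.78 ± 0.18 on the log2 scale (SE, 6.86-fold lower in cortex, adjusted p = 2.48e-05). It was also called under pan-endothelial scaling (-1.52, adjusted p = 0.0397). Tnfaip2, which tumour necrosis factor induces in endothelium, had 8.04, 9.80, 10.23 and 7.51 in cortex, against 10.75, 10.97, 10.75 and 10.98 in lung. Its lowest cortex arrays, 18 and 72, were those with the lowest pan-endothelial means, and its difference of -1.97 (adjusted p = 0.0438) lost its call without any 1 of 6 arrays and was -1.20 with the mean of all probe sets. The other 3 genes that fell were Icam1 (-1.66), Nfkbie (-1.19) and Sele (-0.49), named after their values were seen, and Nfkbie and Sele turned positive under pan-endothelial scaling. Nfkbie passed without each array in turn, while the call of Icam1 held in 3 of the 8 fits that left out an array and that of Sele in 0 of 8.

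The factors that induce early genes were mostly not called. Of 19 measured genes of the serum response factor, ternary complex, CREB and MAP kinase pathways, 2 fell in cortex, 0 rose (limma, adjusted p under 0.05; at an unadjusted p under 0.05 there were 5 lower and 4 higher) and 17 did not pass, a called share of 10.5% against 18.1% of all genes. Elk4, a ternary complex factor that sits with serum response factor on early gene promoters, had 10.86, 11.44, 11.24 and 10.85 in cortex, against 11.98, 12.05, 12.18 and 12.01 in lung, and fell by 0.96 (adjusted p = 0.0047), or by 0.57 with the mean of all probe sets. The stress kinase gene Mapk14 (p38 alpha) fell by 0.46 (11.69 ± 0.08 in cortex and 12.15 ± 0.13 in lung, SD, n = 4 each, adjusted p = 0.0341), a call that ended without any 1 of 6 arrays. Both differences turned positive under pan-endothelial scaling, at 0.30 and 0.80, without a call.

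**Figure D5:**
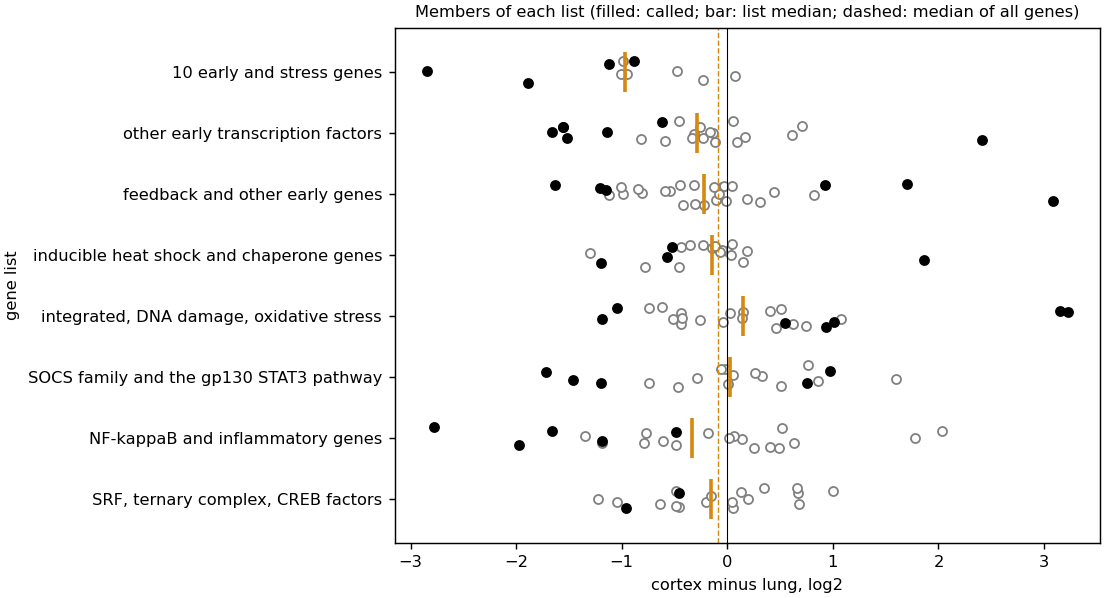
Cortex minus lung differences (log2) of the 10 genes and of the measured genes of 7 related lists; filled points were called at an adjusted p under 0.05, orange bars are list medians and the dashed line is the median of all genes (-0.09). The 10 genes have a median of -0.97 with 4 of 10 called, and the calls lie on both sides of 0 in 5 of the 7 related lists; pan-endothelial scaling, not drawn here, moves the median of all genes to 1.17.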

How the data were processed

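RNA from sorted GFP-positive cells (15 to 30 ng) was linearly amplified, labelled with biotin and measured on the Affymetrix Mouse Genome 430 2.0 Array, per the labels' protocols. The authors deposited log2 expression values for 45101 probe sets, and the submitters' processing notes name RMA and affy, with versions not given in the sources used here. RMA subtracts background, gives all arrays the same distribution and combines probes, so each difference is relative to the rest of the array and differences of low values are understated. The medians of the arrays ran from 6.59 to 6.72. Precision is limited by the number of arrays. All 8 columns were mapped by their sample identifier.

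After 64 control probe sets were left out, 34945 probe sets named 1 gene in the platform annotation, 932 named several and 9160 were unnamed here, and 34741 of the first had their gene number in the RefSeq gene table. The brightest probe set of a gene, by its mean on all 8 arrays, stood for that gene, and 18193 genes were tested. The tissues were compared in R 4.3.3 by limma 3.58.1 (lmFit and eBayes, tissue as the factor, no block, two-sided), with Benjamini-Hochberg adjustment over all genes and calls at an adjusted p under 0.05. The fit was tested on simulated data. With nothing else known of the samples than their pooled litters, p-values measure the spread between these arrays.

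The genes, the related lists and the markers were chosen with earlier results of these data known, and lists are described by counts and medians without a set test. In each related list the 2 called genes with the largest difference are described by a fixed rule, as are the 3 genes nearest to Fos by mean absolute difference of centred values. Of the list genes, 12 had no probe set of their own and are not analysed here. Promoter windows came from RefSeq (GRCm38.p6) and were searched with Python 3.11.15. The alternatives were the mean of all probe sets, no dim genes (mean above the median gene), median centring, scaling to 26 pan-endothelial markers, an intensity trend, array weights, a block on the sample number, each array left out and, chosen after the data were seen, both arrays numbered 18 left out.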

Additional observations from a re-analysis of the deposited data

Results flagged for a closer look

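Within each tissue the 4 values of each of the 10 genes were examined for an array far from the others, by the gap to the nearest array over the whole range, with Dixon's critical value for 4 arrays. Of the 20 groups of 4 values, 1 passed: Socs3 on cortex 18 lay at 6.78, below the other cortex arrays at 7.91 to 8.05, with a gap of 0.884 of the range. Chance passes about 5% of such groups. The values examined were those of the brightest probe set of each gene. In the dimmest probe set of Socs3, cortex 18 (5.85) was not the lowest cortex array, and cortex 19 lay at 5.83. Without cortex 18 the Socs3 difference was -2.54 (limma adjusted p = 9.12e-05).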

How the results depend on the processing

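Over the alternatives tried, the difference of Socs3 stayed below 0 and called under each. Differences given are cortex minus lung, and counts of lists are lower and higher in cortex. Pan-endothelial scaling, under which limma gave every gene the same SE (0.595), moved most: Fos (0.78), Fosb (0.27), Jun (1.02), Junb (0.37), Atf3 (0.31), Ier2 (0.14) and Ier3 (0.25) turned positive without a call, Hspa1b lost its call (-0.63), and 1 of the 10 genes remained lower (1 at an unadjusted p under 0.05). Egr1 rose to 1.33 without a call, and 1 of the 10 genes was higher in cortex at an unadjusted p under 0.05. In the lists under this scaling 0 genes were called lower and 3 higher among early factors, 0 and 6 among feedback regulators, 0 and 2 among chaperones, 0 and 11 among integrated stress genes, 0 and 8 in the Socs3 pathway, 1 and 7 among inflammatory genes and 0 and 6 among upstream factors, with 136 and 5355 over all genes (at an unadjusted p 0 lower in each list given with 0, and 185 over all genes). The list genes that turned positive there, all uncalled, were Mafk (0.64), Csrnp1 (0.12), Zfp36l2 (0.11), Ccn2 (0.049), Hspa4 (0.73), Hspb1 (0.061), Hspd1 (0.69), Trib3 (0.22), Ppp1r15a (0.069), Jak1 (0.066), Nfkbie (0.072), Sele (0.77), Elk4 (0.30) and Mapk14 (0.80). Median centring moved the median of all genes from -0.09 to -0.30 and gave 2410 lower and 1564 higher. There Fosb passed (-1.20), Egr1 turned to -0.14, chaperones had 6 lower, integrated stress genes 5 lower, the Socs3 pathway 1 higher, inflammatory genes 1 higher and upstream factors 4 lower and 1 higher. Median centring ended the calls of Ddit4 (0.33), Socs7 (0.54), Sele (-0.70) and Mapk14 (-0.67). With array quality weights Fosb passed (-1.32), and the counts were 5 lower for chaperones, 4 lower for integrated stress genes, 1 higher for inflammatory genes, 4 lower and 1 higher for upstream factors, and 2233 lower and 2204 higher over all genes. Hspb1 lost its call with these weights (-0.90, adjusted p = 0.0538). The mean of all probe sets ended the calls of Hspa1b (-1.37), Csrnp1 (-0.65), Hspa4 (-0.22), Socs7 (0.29) and Mapk14 (-0.42) and gave 1 higher each in the Socs3 pathway and among upstream factors. Without dim genes, inflammatory genes had 3 lower and upstream factors 2 higher, and Fosb and Junb were not among the genes tested. An intensity trend ended the calls of Junb (-0.89, adjusted p = 0.0587) and Mafk (-0.62, adjusted p = 0.0787) and gave 2 upstream factors higher. Without both arrays numbered 18, Junb lost its call (-1.0003), Egr1 turned to -0.094, and the counts were 0 lower and 0 higher for chaperones, 3 and 1 for inflammatory genes, 1 lower for upstream factors and 929 lower over all genes. Of the 36 called list genes, 12 lost their call there: Mafk, Csrnp1, Dusp4, Hspa4, Hspa4l, Hspb1, Hspd1, Atf5, Ddit4, Tnfaip2, Sele and Mapk14.

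Leaving out each array in turn gave 1 to 4 of the 10 genes lower in cortex, with 1 without cortex 72 or lung 72. The differences ran from -0.87 to -0.23 for Fos, -1.33 to -0.69 for Fosb, -0.31 to -0.14 for Jun, -1.05 to -0.64 for Junb, -0.044 to 0.20 for Egr1 (-0.037 without cortex 22 and -0.044 without lung 18), -1.31 to -0.26 for Atf3, -1.25 to -0.84 for Ier2, -1.22 to -0.48 for Ier3, -2.97 to -2.54 for Socs3 and -2.28 to -1.33 for Hspa1b. The lists then had 2 to 6 lower among early factors, 1 to 4 lower and 2 to 3 higher among feedback regulators, 1 to 2 lower and 0 to 1 higher among chaperones, 2 to 3 lower and 4 to 6 higher among integrated stress genes, 2 to 4 lower and 2 higher in the Socs3 pathway, 2 to 5 lower and 0 to 1 higher among inflammatory genes, and 1 to 3 lower and 0 to 2 higher among upstream factors, with 956 to 1274 lower and 1393 to 1966 higher over all genes. Of the 36 called list genes, 20 passed without each array in turn.

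The labels count 4 litters and do not say whether arrays of the same number share one, so pairing by litter is possible and was not established. The deviations of same-numbered arrays from their tissue means correlated at 0.33 (number 72), -0.16 (22), 0.01 (19) and 0.31 (18) over all genes. With the number as a replicate block, all 10 genes kept their side of the threshold (Socs3 -2.85), inflammatory genes had 2 lower and 2 higher, and 1342 genes were lower and 1801 higher. Of the 36 called list genes, 6 lost their call there: Cited2, Ddit4, Tnfaip2, Icam1, Sele and Mapk14. The 4 arrays per tissue and the floor of RMA values limit what can be seen at low levels.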
